A study of Mus musculus with 8 samples.

Results

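The 9 genes described here are standard markers of microglia, the resident immune cells of the brain: C1qa, C1qb, C1qc, Csf1r, Cx3cr1, P2ry12, Ctss, Trem2 and Tyrobp. They were chosen as a named list of microglia genes. Both preparations were sorted for cells of the oligodendrocyte lineage, and which cells the marker RNA came from was not measured. All 9 were among the 11315 genes of the RNA-sequencing tables. Their promoters, exons and introns held 94 of the 1497075 CCGG sites read by reduced representation hydroxymethylation profiling (RRHP), counted per strand. RRHP yields reads where the cytosine of a CCGG site carries 5-hydroxymethylcytosine (5hmC), because the mark, once glucosylated, protects the site from the enzyme MspI.

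Both cell populations came from the brains of C57BL/6 mice that had reached postnatal day 60. Adult progenitors of oligodendrocytes (aOPC) were sorted as living EGFP-positive cells from mice in which the Pdgfra locus drives a histone-tagged EGFP, and adult oligodendrocytes (aOL) in the same way from Plp-EGFP mice, in which a myelin gene promoter drives EGFP. Neither reporter gene is a microglial gene, and no step that removes microglia other than the Percoll gradient and the sort is described. Each population had 2 RNA libraries and 2 RRHP libraries, numbered replicates 2 and 3, and replicate 1 was not analysed here. DNA and RNA were taken from the same pellet, the RNA titles call the aOL cells pre-myelinating while the protocol calls them myelinating, and aOL RRHP samples are labelled in their tissue field with the Pdgfra reporter, so titles set the groups. The methods speak of biological replicates, and how mice were divided among the libraries is not given in the sources used here, so the p-values measure only the spread between these libraries.

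Microglia enter the brain from the embryonic yolk sac and depend on the receptor Csf1r for survival. C1qa, C1qb and C1qc encode the 3 chains of C1q, the first component of the classical complement pathway, which tags debris and synapses for removal. Trem2 is a surface receptor for lipids that signals through the adaptor Tyrobp, Cx3cr1 and P2ry12 receive the neuronal chemokine fractalkine and extracellular ADP, and Ctss is a lysosomal protease.

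The deposited RNA values are log2 levels brought to one distribution by quantile normalisation, with a median close to 10.57 in each library, and they carry no read counts. RRHP libraries held from 7113237 to 27057859 counts, so that 3 counts, the floor used here, were worth between 0.111 and 0.422 counts scaled to a library total of 1000000 (CPM). As a check of the labelled populations, 12 of 12 oligodendrocyte markers had a median position at percentiles 99.7 to 99.8 of all genes in every RNA library, aOPC libraries included. The OPC markers, 10 of 11 of which were in the tables, had their median at percentile 24.6 in aOPC replicate 2, 8.66 in aOPC replicate 3, and 9.92 and 10.1 in the aOL libraries. In aOPC replicate 2, 9 of 10 lay above both aOL libraries, as did 4868 of all 11315 genes. Pdgfra stood at 7.54 there, under the median gene. In aOPC replicate 3 only 5 of 10 lay above both aOL libraries, Pdgfra at 5.47 among them, beside 5277 of all genes. In that library 4 lay below both, Gpr17 at 8.20 and Ptprz1 at 6.21 among them. As a list these markers do not bear out the label of aOPC replicate 3. Of the 12 oligodendrocyte markers, 4 were lower in both aOL libraries than in both aOPC libraries, and 3 were higher. The aOPC libraries were also less alike than the aOL libraries, with a median distance between replicates of 0.48 against 0.12 log2 units over all genes.

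The microglia markers were measurable in all 4 RNA libraries and were low in each. Values of a population are given with replicate 2 before replicate 3. Their log2 levels ran from 5.38 to 10.08, and in no library did a marker reach the median gene. Their median position was percentile 20.5 in aOPC replicate 2, 14.7 in aOPC replicate 3, 13.1 in aOL replicate 2 and 10.7 in aOL replicate 3. In bulk samples fewer cells of a type and less RNA per cell cannot be told apart. Summed over the 9 genes on the linear scale, the level was 11.81 in log2 units in aOPC replicate 2, 10.53 in aOPC replicate 3, 11.08 in aOL replicate 2 and 10.47 in aOL replicate 3. One aOPC library thus held the most marker RNA, while the other stood level with an aOL library.

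**Figure D1:**
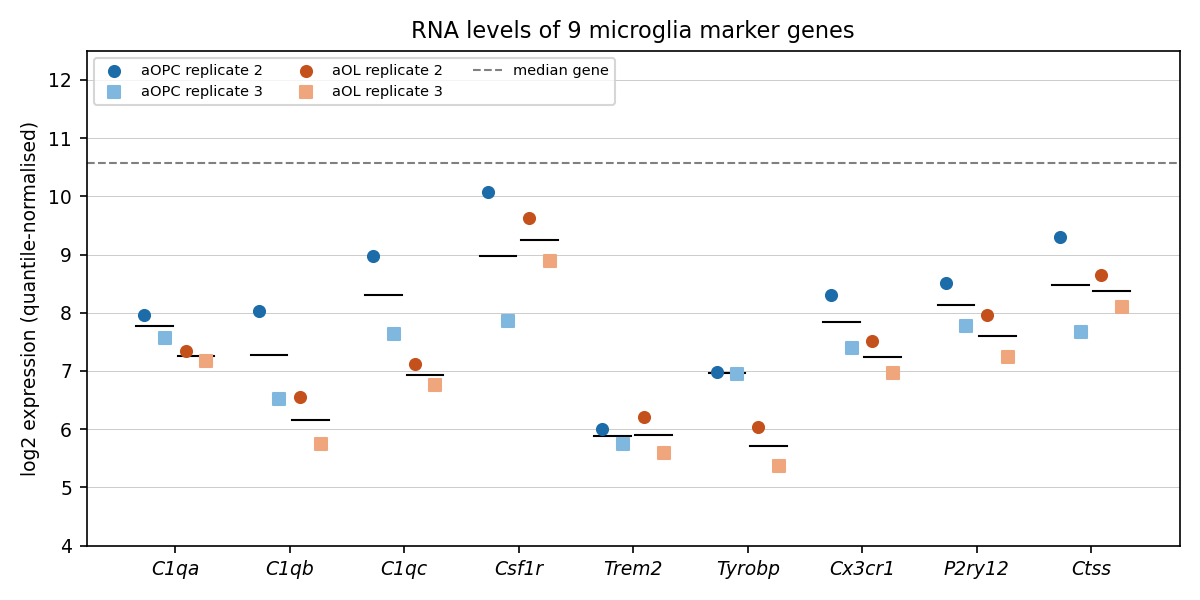
RNA level (log2, quantile-normalised, vertical axis) of the 9 microglia markers (horizontal axis) in each of 4 libraries; points are single libraries, short black lines are the mean of a population, and the dashed line is the median gene. All points lie below the dashed line, and for each gene replicate 2 lies above replicate 3 in both populations.

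To compare genes with each other, each level was put on a per-kilobase scale by subtracting the log2 of the merged exon length. On that scale Ctss was highest, at 7.99 ± 0.70 (SD over the 4 libraries), followed by C1qa at 7.45 ± 0.34, C1qc at 7.35 ± 0.98, Tyrobp at 7.16 ± 0.77, Csf1r at 6.82 ± 0.97, C1qb at 6.60 ± 0.96, P2ry12 at 6.58 ± 0.52, Trem2 at 5.70 ± 0.27 and Cx3cr1 at 5.37 ± 0.56. Neighbours in this order lay closer together than the larger of their SDs, except P2ry12 and Trem2. Per kilobase, the median over the markers lay between 6.20 and 7.81 in the 4 libraries, against 8.72 to 8.84 for all genes.

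The 3 C1q chains, which assemble into 1 molecule, had lower mean RNA levels in aOL, and the differences did not pass the test. C1qa had log2 levels of 7.97 and 7.57 in aOPC against 7.34 and 7.17 in aOL, so its populations did not overlap. C1qc had levels of 8.98 and 7.63 in aOPC against 7.12 and 6.75 in aOL, again without overlap. C1qb had levels of 8.04 and 6.53 in aOPC against 6.56 and 5.75 in aOL. Here 1 aOPC library fell just under the upper aOL library. The log2 difference, aOL minus aOPC, was −0.51 (SE 0.24) for C1qa, −1.37 (SE 0.52) for C1qc and −1.13 (SE 0.62) for C1qb, and none passed the test (limma, adjusted p = 0.270, 0.217 and 0.331).

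Tyrobp, the adaptor that carries the Trem2 signal into the cell, had the smallest spread within aOPC, with log2 levels of 6.98 and 6.95, against 6.03 and 5.38 in aOL. Both aOL libraries lay below both aOPC libraries. Its log2 difference was −1.26 (95% interval −2.06 to −0.46), a level 2.39-fold higher in aOPC, and it did not pass the test over all genes (limma, adjusted p = 0.145). Trem2 itself had levels of 6.01 and 5.75 in aOPC against 6.21 and 5.59 in aOL. Its populations overlapped, and the log2 difference of 0.02 had a 95% interval from −0.79 to 0.83.

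Csf1r, the receptor for the survival factors CSF1 and IL-34, showed the widest spread of the markers within aOPC. Its log2 levels were 10.08 and 7.86 in aOPC against 9.62 and 8.88 in aOL, so both aOL libraries lay between the aOPC libraries. The log2 difference of 0.28 had a 95% interval from −1.99 to 2.56. Cx3cr1 had levels of 8.30 and 7.39 in aOPC against 7.52 and 6.97 in aOL, which overlapped, with a difference of −0.60 (SE 0.41). P2ry12 had levels of 8.50 and 7.77 in aOPC against 7.96 and 7.24 in aOL, which also overlapped, with a difference of −0.54 (SE 0.40). The adjusted p was 0.851 for Csf1r, 0.413 for Cx3cr1 and 0.450 for P2ry12 (limma). Ctss had levels of 9.30 and 7.67 in aOPC against 8.65 and 8.10 in aOL. As with Csf1r, the aOL libraries lay between the aOPC libraries, and the log2 difference of −0.11 had a 95% interval from −1.81 to 1.60.

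No marker was called different between the populations in RNA (0 of 9, against 0.0808% of all 11133 genes tested, or 9 genes). In 7 of 9 markers the log2 difference was below 0, with a median of −0.54 over the list against 0.02 over all genes. That median was −0.17 without aOPC replicate 2 and −0.92 without aOPC replicate 3, and it was −0.88 without aOL replicate 2 and −0.33 without aOL replicate 3. The populations did not overlap in 3 of 9 markers, each time with aOL lower, which is close to the 29.9% of all genes with aOL lower in this way. An unadjusted p under 0.05 with aOL lower was found for 1 marker, Tyrobp, and for 12% of all genes. Without aOPC replicate 3, C1qc was called (log2 difference −2.05, adjusted p = 0.0445), and in that fit 1102 genes were called higher and 872 lower. Such a fit takes its spread from the 2 aOL libraries and assumes that the lone aOPC library varies like them. The same holds without aOPC replicate 2, where 1906 genes were called higher and 1899 lower, with 0 markers among them.

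The difference between replicates was the more regular feature of these RNA levels. In both populations all 9 markers were higher in replicate 2 than in replicate 3, as were 20.6% of all genes. The median of replicate 2 minus replicate 3 was 0.91 log2 units in aOPC and 0.62 in aOL, against −0.10 and 0.00066 over all genes. Without regard to sign, the median over all genes was 0.48 in aOPC and 0.12 in aOL. Across markers the difference in aOPC ran from 0.03 for Tyrobp to 2.22 for Csf1r, and in aOL from 0.17 for C1qa to 0.81 for C1qb. Of the 19 other microglia markers in the tables, 10 were higher in replicate 2 in both populations, as were 3 of 3 border macrophage genes, 4 of 8 neuron markers, 4 of 10 astrocyte markers, 3 of 10 OPC markers, 2 of 12 oligodendrocyte markers, 1 of 5 vascular markers and 0 of 6 blood genes. Of the pathway lists this held for 5 of 9 complement genes, 1 of 5 Csf1r pathway genes, 1 of 4 Trem2 and Tyrobp pathway genes, 3 of 11 Cx3cr1 and purinergic genes, 2 of 17 cathepsins and partners and 1 of 7 genes of damage-associated microglia. Within aOPC alone, replicate 2 was higher for 10 of 10 OPC markers, 9 of 10 astrocyte markers and 5036 of all 11315 genes. Same-numbered libraries came from different reporter lines, and whether they share more than a number was not tested.

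The 5 genes outside the list whose 4-library profile lay nearest the markers' median profile (Euclidean distance between profiles centred on their own mean, over 4 libraries) were Ccdc74a, Nrep, Traf4, Arpp21 and Shcbp1l. Their distances ran from 0.157 to 0.209 log2 units, while those of the markers themselves ran from 0.0159 for Cx3cr1 to 1.30 for Csf1r. Ccdc74a, the nearest, stood at 6.75 and 5.65 in aOPC against 5.89 and 5.26 in aOL. None of the 5 was called between the populations (limma, adjusted p from 0.311 to 0.541).

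Other markers of microglia and neighbouring cell types were set beside them. Of 25 further microglia genes, 19 were in the tables, with 0 called by limma and a median log2 difference of −0.30. By sign 6 were higher and 13 lower in aOL, beside 48.7% of all genes tested lower. At an unadjusted p under 0.05 (limma), 0 were higher and 2 lower, beside 12.1% and 12% of all genes. Tmem119, a microglial membrane protein, had levels of 8.33 and 8.05 in aOPC against 7.68 and 7.24 in aOL, and the transcription factor Irf8 had levels of 5.37 and 5.79 in aOPC against 4.90 and 4.46 in aOL. In neither gene did the populations overlap, with adjusted p = 0.203 and 0.178 (limma). Irf8 was under the log2 level of 5 needed for a test in both aOL libraries. It passed that filter only through aOPC, so it had to differ. Of the 19 genes, 4 did not overlap with aOL lower, beside 29.9% of all genes tested. Another 2, Itgam and Sall1, did not overlap with aOL higher, beside 31.9%. The myeloid transcription factors Spi1 and Runx1 and the macrophage genes Aif1, Adgre1 and Cd33 were not listed. Of the markers of border macrophages, which line vessels and meninges, 3 of 8 were listed, and the mannose receptor Mrc1 stood at 5.59 and 1.80 in aOPC against 6.08 and 4.20 in aOL. The neutrophil gene S100a8 stood at 1.42 and 7.24 in aOPC against 6.50 and 5.14 in aOL.

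**Figure D2:**
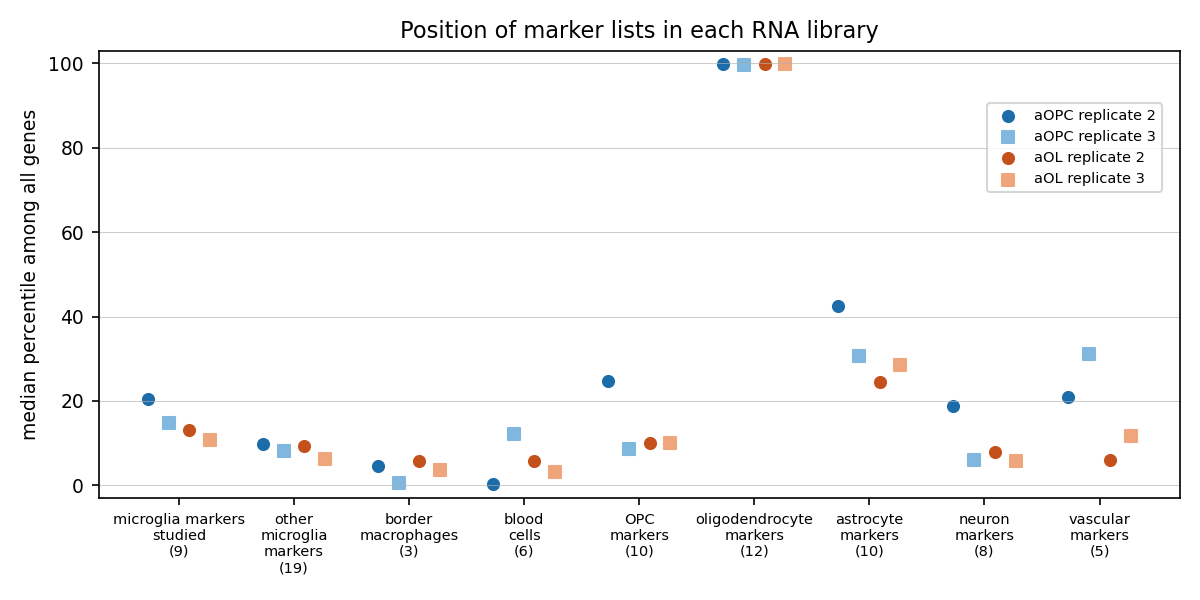
Median percentile among all genes (vertical axis, 0 to 100) of 9 marker lists (horizontal axis, with the number of listed genes found in the tables) in each of 4 RNA libraries. The microglia markers lie between percentiles 10.7 and 20.5, and oligodendrocyte markers lie at the top of all 4 libraries.

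Genes that act with the markers showed 0 calls in each list (limma). At an unadjusted p under 0.05, complement genes had 1 higher and 2 lower, the Csf1r pathway 0, the Trem2 and Tyrobp pathway 1 lower, the Cx3cr1 and purinergic genes 4 higher and 1 lower, cathepsins and partners 1 higher and 5 lower, and genes of damage-associated microglia 3 lower, beside 12.1% of all genes higher and 12% lower at that threshold. For complement, 9 of 18 genes were listed, 3 higher and 6 lower in aOL, with a median log2 difference of −0.44. The C1 inhibitor Serping1, which stops the C1 complex that C1q starts, had levels of 7.38 and 6.83 in aOPC against 4.69 and 4.57 in aOL (log2 difference −2.47, adjusted p = 0.102). C4b, the component cleaved next in the pathway, had levels of 11.45 and 10.90 in aOPC against 9.22 and 9.52 in aOL (log2 difference −1.80, adjusted p = 0.124). Both lay well apart between populations and fell short of the adjusted threshold, whereas C2 and C3 were not listed. Serping1 was under the log2 level of 5 needed for a test in both aOL libraries. It passed that filter only through aOPC, so it had to lie apart.

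For the Csf1r pathway, 5 of 11 genes were listed, 2 higher and 3 lower, with a median of −0.01. The transcription factor Cebpb differed by −1.20 (SE 0.49), with adjusted p = 0.235 (limma). At 4.80 in both aOL libraries it passed the filter of log2 5 only through aOPC, so it had to differ. The ligand Csf1 was abundant, at 13.43 and 12.22 in aOPC against 13.31 and 13.34 in aOL. Of the Trem2 and Tyrobp pathway 4 of 12 genes were listed, with a median of −0.13. The lipid carrier Apoe, a Trem2 ligand, stood at 15.91 and 16.13 in aOPC against 15.13 and 15.37 in aOL, without overlap (log2 difference −0.76, adjusted p = 0.167), and the phospholipase Plcg2 differed by 0.21 (SE 0.26).

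For Cx3cr1 and the purinergic receptors, 11 of 13 partner genes were listed, 7 higher and 4 lower, with a median of 0.04. The sheddases Adam10 and Adam17, which can release the Cx3cr1 ligand from neurons, were higher in both aOL libraries, by 1.38 (SE 0.20) and 1.34 (SE 0.23), with adjusted p = 0.122 and 0.127. Among cathepsins and antigen-presentation partners of Ctss, 17 of 18 were listed, 1 higher and 16 lower, with a median of −0.53. Cd74, the invariant chain that Ctss cleaves, differed by −1.53 (SE 0.27), and the thiol reductase Ifi30 by 1.47 (SE 0.20), with adjusted p = 0.131 and 0.113. Of the genes raised in damage-associated microglia, 6 of 12 were tested, with a median of −0.61, and Spp1, one of them, differed by −1.27 (SE 0.28, adjusted p = 0.141).

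Lists for the remaining cell types also held 0 calls. The median log2 difference was −0.75 for OPC markers, 0.0022 for oligodendrocyte markers, −0.60 for astrocyte markers, −0.32 for neuron markers, 0.69 for vascular markers, 1.45 for border macrophages and 0.70 for blood cells. Of the genes with the lowest p in each list, the OPC genes Neu4 and Vcan differed by −5.17 and −4.20, the oligodendrocyte genes Opalin and Ugt8a by −0.98 and 0.79, and the astrocyte genes Gfap and Slc1a3 by −0.72 and 0.49. The neuron genes Stmn2 and Tubb3 differed by −2.10 and −0.46, the endothelial gene Cldn5 and the fibroblast gene Dcn by 5.46 and −4.14, the border macrophage genes F13a1 and Mrc1 by 2.05 and 1.45, and the blood genes S100a8 and Hba-a1 by 1.49 and 0.49. None of these passed the threshold. In aOL, Neu4 stood at 3.03 and 3.61 and Vcan at 2.49 and 3.24, and in aOPC Cldn5 stood at 0.33 and 1.80. These levels lie under the log2 level of 5 needed for a test. Each of the 3 genes passed that filter only through the other population, so it had to differ. The part of cells other than microglia in the marker levels was not tested.

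In RRHP, CCGG sites of the microglia markers carried counts in both populations, mostly inside the genes. Of the 94 sites, 36 lay in a member's exon and 47 in a member's intron, 18 were assigned to a promoter, and 0 lay in a CpG island, against 11.7% of all sites read. The 94 sites belonged to 70 CCGG positions, of which 34.3% were read on both strands, close to the 36.1% over all positions. The most deeply read single value was 152 counts, in P2ry12. Members differ in how many CCGG sites they hold, from 8 strand positions in C1qb to 54 in P2ry12, so levels between genes were compared as CPM per CCGG strand position.

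P2ry12 had the densest 5hmC signal of the markers, at 0.681 CPM per position over its RefSeq span, at percentile 93.6 of 18106 protein-coding genes. Its span lies within the oppositely transcribed gene Med12l, and reads in the shared stretch cannot be given to one of them. The other markers with a body signal lay near the middle, from percentile 38.2 for Cx3cr1 to 61.0 for C1qa. C1qb and Tyrobp stood at percentiles 0.508 and 0.779, with 1 site read in each. Their bodies had 0 or 1 count in every library, under the floor of 3 counts, so 5hmC inside them was not detectable at this depth.

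No gene body of a marker was called different between the populations. P2ry12 had 117 and 416 counts in aOPC against 376 and 552 in aOL, or 16.4, 24.3, 23.6 and 20.4 CPM. C1qa had 6.61 and 6.13 CPM in aOPC against 6.66 and 7.06 in aOL, over 15 sites. Csf1r had 6.47 and 8.47 CPM in aOPC against 8.73 and 10.1 in aOL, over 18 sites. In C1qa and Csf1r both aOL libraries were above both aOPC libraries, by little in the first, and in P2ry12 the populations overlapped. Ctss had 10.8 and 8.99 CPM in aOPC against 6.85 and 8.02 in aOL over 9 intronic sites, without overlap. Of all gene bodies, 21% had both aOL libraries above both aOPC libraries in this way and 17.8% had both below. Cx3cr1, at 6.89 and 5.37 against 3.77 and 5.73 CPM, and Trem2, at 5.62 and 4.50 against 3.96 and 4.73 CPM, overlapped.

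Of the markers, C1qc had the lowest unadjusted p among gene bodies. It held 6.89 and 7.18 CPM in aOPC and 4.46 and 4.03 CPM in aOL over 13 sites, so both aOL libraries were lower. Its log2 difference of −0.75 (SE 0.28) did not pass the test (edgeR, adjusted p = 0.547). Part of that difference came from 2 sites that the deposited tables assign to both the body and the promoter of C1qc. At the remaining 11 sites the level was 5.20 and 5.55 CPM in aOPC against 4.46 and 4.03 in aOL. None of the 7 bodies tested was called by edgeR or DESeq2, against 0.849% of 18488 bodies (157) by edgeR, and 1 of 7, C1qc, had an unadjusted p under 0.05, beside 7.3% of all bodies. Over the 7 bodies the median log2 difference was −0.21 against −0.0027 over all bodies. It was −0.083 without aOL replicate 2, −0.34 without aOPC replicate 3 and −0.35 without aOL replicate 3, and with library totals of the study it turned to 0.18 while the median of all bodies moved to 0.37.

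**Figure D3:**
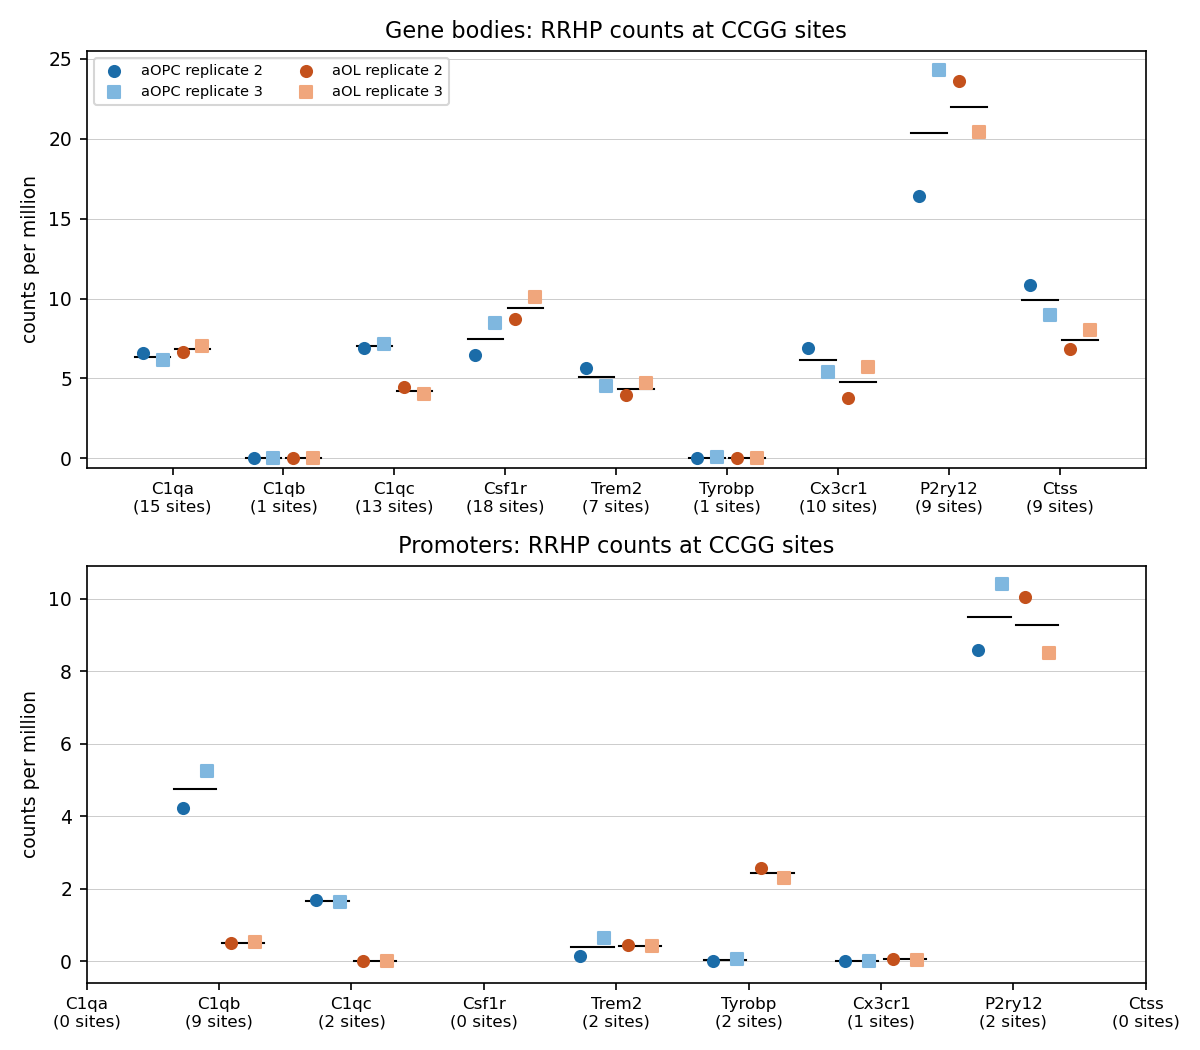
RRHP CPM (vertical axes, from 0) summed over the sites of each microglia marker in gene bodies (top) and promoters (bottom), with the number of sites under each gene; points are single libraries and black lines population means. C1qb and C1qc promoters are high in aOPC and the Tyrobp promoter is high in aOL, while genes with 0 promoter sites have no points.

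The differences that were called lay in promoters. The deposited tables assign promoter sites to 6 of the 9 markers, namely C1qb, C1qc, Cx3cr1, P2ry12, Trem2 and Tyrobp, and 4 of these had enough counts to be tested. C1qb and C1qc were called lower in aOL and Tyrobp was called higher, beside 0.35% of 14579 promoters called lower and 0.418% called higher. The filter on low counts asked for about 0.605 CPM in 2 libraries. Each of the 3 called promoters was under it in both libraries of one population and passed only through the other, so they had to differ, and the C1qc and Tyrobp promoters were near 0 in the lower population.

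The C1qb promoter had 30 and 90 counts in aOPC against 8 and 14 in aOL over 9 sites, or 4.22 and 5.26 CPM against 0.502 and 0.517 CPM. Both aOL libraries were far below both aOPC libraries. The log2 difference was −2.90 (SE 0.49, edgeR adjusted p = 0.00108). It fell short of the threshold without aOL replicate 3 (adjusted p = 0.0987) and without scaling factors (adjusted p = 0.0843), with the direction kept in both. The counts came mainly from 3 CCGG positions in a stretch of 147 bases that lies 292 to 438 bases upstream of the RefSeq start of C1qb, shown because they carry the difference. The sequence is GRCm38, chr4:136886492-136886638, on the minus strand that C1qb is read from, 5′ to 3′, with the CCGG sites in capitals.
C1qb upstream: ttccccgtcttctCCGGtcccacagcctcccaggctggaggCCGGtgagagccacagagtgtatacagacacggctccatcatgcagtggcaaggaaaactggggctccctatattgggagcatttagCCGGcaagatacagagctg

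The 6 strand positions of this stretch held 27 and 86 counts in aOPC against 3 and 0 in aOL. The first CCGG printed, at position 136886624 on the minus strand, held 14 and 40 counts in aOPC against 1 and 0 in aOL, a ratio of 95.8 that rests on 1 aOL count, with a 95% counting interval from 16.5 to 3852 (edgeR adjusted p = 1.7e-04). The last CCGG, at position 136886508 on the plus strand, held 10 and 25 counts in aOPC against 0 and 0 in aOL, at least 9.58-fold lower than aOPC against a floor of 3 counts per library (adjusted p = 4.1e-04). At both, aOL was at or under the floor. A further CCGG, 792 bases upstream, had 3 and 3 counts in aOPC against 5 and 13 in aOL, too few to test, and at 0.422 and 0.175 against 0.314 and 0.480 CPM the populations overlapped.
C1qb 136886992: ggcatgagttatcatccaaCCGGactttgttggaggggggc

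The C1qc promoter had 12 and 28 counts in aOPC against 0 and 0 in aOL over 2 sites inside the transcribed span. The aOL level was at least 11.1-fold lower against a floor of 3 counts per library (edgeR adjusted p = 4.7e-04). Without aOPC replicate 3 this promoter did not pass the filter and was not tested. At position 136892139 on the plus strand, in an intron, the counts were 4 and 17 in aOPC. At position 136892435 on the minus strand, in an exon, they were 8 and 11. Neither had the reads to be tested singly, and both are shown on their own strand, with the CCGG in capitals.
C1qc 136892139: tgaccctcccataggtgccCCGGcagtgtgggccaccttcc
C1qc 136892435: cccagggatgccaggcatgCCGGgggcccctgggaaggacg

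The Tyrobp promoter was read in the other direction. It had 0 and 1 counts in aOPC against 41 and 62 in aOL over 2 sites, a ratio of 58.1 that rests on 1 aOPC count, with a 95% counting interval from 10.2 to 2316 (edgeR adjusted p = 4.3e-05). Nearly all of these counts came from 1 CCGG, at position 30412979 of chromosome 7 on the plus strand, 803 bases upstream of the Tyrobp start, with 0 and 0 counts in aOPC against 41 and 61 in aOL. It was at least 8.09-fold higher in aOL against the floor (adjusted p = 2.9e-04). The opposite strand of the same CCGG was not read in any library.
Tyrobp 30412979: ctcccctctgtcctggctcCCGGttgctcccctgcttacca

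The P2ry12 promoter held 2 well-read sites and was not called. It had 61 and 178 counts in aOPC against 160 and 230 in aOL, or 8.58, 10.4, 10.05 and 8.50 CPM, and the populations overlapped. The log2 difference was 0.32 (SE 0.55, edgeR adjusted p = 0.998), while the mean CPM was 9.49 in aOPC and 9.27 in aOL. The sign came from the scaling factors of the fit, without which the difference was −0.043. The Trem2 promoter, with 1 and 11 counts in aOPC against 7 and 11 in aOL, and the Cx3cr1 promoter, with 0 and 0 against 1 and 1, were not tested. The P2ry12 site with the most counts of all, at position 59262292 on the minus strand, had 33 and 110 counts in aOPC against 117 and 152 in aOL. Its context is shown as a promoter site that was read in every library. The site also lies in an exon of Med12l, so its reads cannot be given to one of the genes.
P2ry12 59262292: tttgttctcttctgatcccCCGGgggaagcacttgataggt

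Taken singly, 35 of the 94 sites had the 10 reads in 2 libraries needed for a test, and 3 were called, those of C1qb and Tyrobp named above, beside 2.29% of 443062 sites tested (10154). Like the called promoters they passed the filter only through one population, and these 3 sites were near 0 in the other. The calls at all 3 sites were lost without aOPC replicate 3, with adjusted p from 0.0594 to 0.104 and the directions kept. The other 32 sites had log2 differences from −1.29 to 1.44 and adjusted p from 0.209 upward. An unadjusted p under 0.05 was found at 6 of the 35 sites, the 3 called ones included, beside 9.75% of all sites tested. In gene bodies the most deeply read sites were not called. For C1qa, position 136896552 had 1.55 and 1.87 CPM in aOPC against 1.88 and 1.88 in aOL. For Ctss, position 95542684 had 7.17 and 5.61 CPM in aOPC against 3.89 and 3.33 in aOL, without overlap, and its log2 difference of −0.92 did not pass the test (edgeR adjusted p = 0.209). For Cx3cr1, position 120051952 in an exon had 1.27 and 1.23 against 1.005 and 1.77 CPM, which overlapped.

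The called promoters stood in chromosome stretches with many other sites read in 1 population. A tested site was counted as such where both libraries of one population had at most 3 counts, which held for 3.04% of all tested sites, 3640 read in aOPC alone and 9825 in aOL alone. Both this limit and the 10 reads needed for a test are fixed counts, so they weigh differently in libraries of unequal depth. Of 66 other tested sites within 50 kb of C1qb, 8 were read in aOPC alone and 6 in aOL alone, 21.2% together. Of 70 around Tyrobp, 4 were read in aOPC alone and 6 in aOL alone, 14.3% together. Both directions thus occurred around both genes. With the limit set at 0.422 CPM in every library, chosen after the data were seen, 12 and 8 sites around C1qb and 5 and 9 around Tyrobp were read in aOPC alone and in aOL alone, or 30.3% and 20%, against 6.69% of all tested sites (8092 and 21543).

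In 5 Mb bins the same measure was 13.5% for the C1q locus, rank 12 of 532 bins with at least 100 tested sites, and 14.8% for the Tyrobp locus, rank 9. The Cx3cr1 bin stood at 8.52%, rank 32. The windows of C1qa and C1qc, which share sites with that of C1qb, had 11 of 52 and 11 of 51 such sites, although no single site of either gene was called. Cx3cr1, P2ry12, Csf1r, Ctss and Trem2 also had 0 called sites. Around Cx3cr1 5 of 56 neighbouring sites were read in 1 population and around P2ry12 1 of 18, against 0 of 48 around Csf1r, 0 of 14 around Ctss and 0 of 25 around Trem2. The part of these stretches in the promoter results was not tested. Since aOPC and aOL came from different reporter lines, line and population cannot be told apart at these sites.

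**Figure D4:**
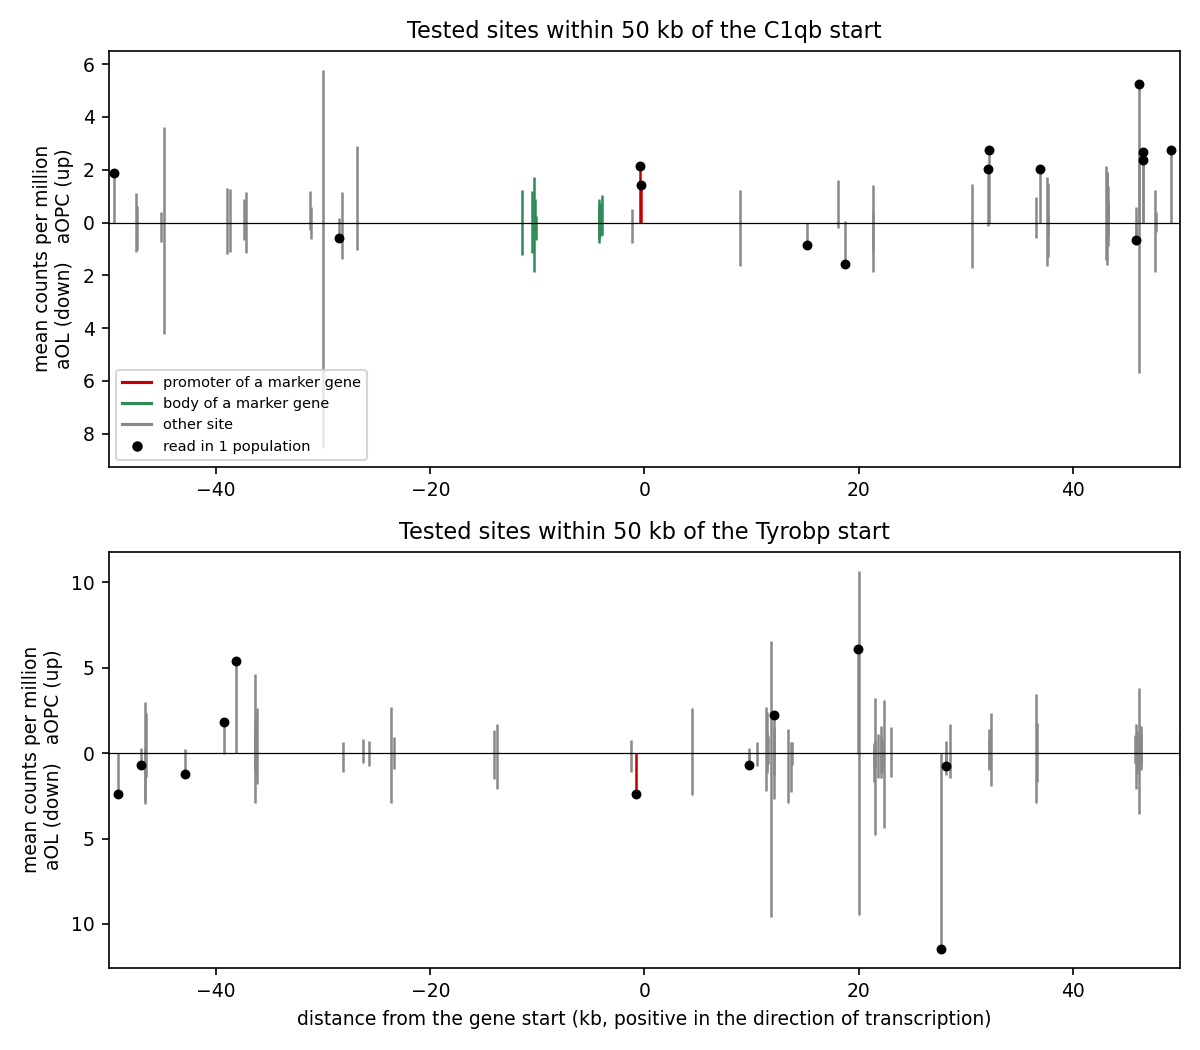
Mean RRHP CPM at each tested site (vertical axes, aOPC upward and aOL downward) by distance in kb from the start of C1qb (top) and Tyrobp (bottom). Red lines are promoter sites of microglia markers, green lines their body sites and grey lines other sites, and black dots mark sites read in 1 population, which occur in both directions around both genes.

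**Figure D5:**
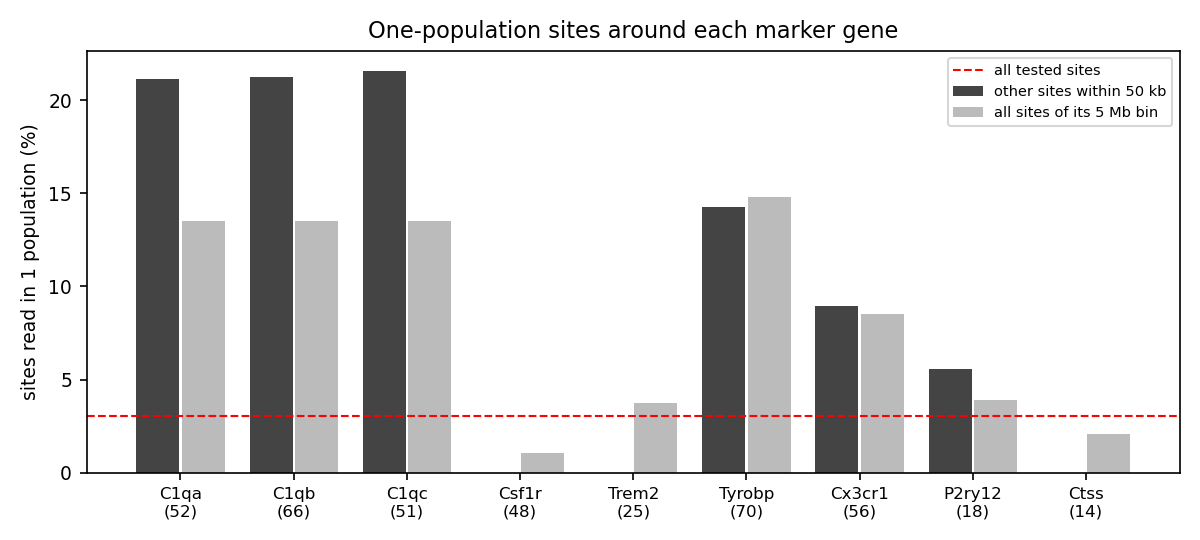
Share of tested sites read in 1 population (vertical axis, percent) among other sites within 50 kb of each marker (dark bars, number of sites under each gene) and among all sites of its 5 Mb bin (light bars). The dashed line is the 3.04% over all tested sites, and the C1q genes and Tyrobp lie far above it.

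For the 3 markers with a called promoter, the RNA is set beside the promoter counts. C1qb RNA was 1.13 log2 units lower in aOL and not called, and its promoter counts were called lower. C1qc had RNA lower by 1.37, not called, and promoter counts at 0 in aOL, while C1qa had no promoter site. Tyrobp RNA was lower by 1.26, not called, while its promoter counts were called higher. For P2ry12, with the densest 5hmC signal of the list over a span shared with Med12l, neither RNA nor promoter counts were called. With 3 called promoters no relation between the readouts was computed.

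Among other lists, 2 of 105 promoters tested were called, beside 0.768% of all promoters. Fcgr3, a microglial Fc receptor, had 37 and 46 counts in aOPC against 5 and 12 in aOL over 3 sites (log2 difference −2.78, SE 0.48, edgeR adjusted p = 0.00119), while its RNA, at 6.80 and 4.98 in aOPC against 6.48 and 6.08 in aOL, overlapped. H2-Aa, an antigen-presentation gene, had 0 and 0 counts in aOPC against 17 and 37 in aOL at 1 site (edgeR adjusted p = 7.6e-04). Its RNA stood at 6.01 and 7.36 in aOPC against 5.56 and 4.97 in aOL, a log2 difference of −1.42 that was not called (limma, adjusted p = 0.220). Both promoters passed the filter on low counts only through the higher population, so they had to differ, and both were chosen after their values were seen.

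RefSeq windows from 250 bases before to 50 after the gene start were at hand for 6 markers, P2ry12, Ctss, C1qb, C1qc, Cx3cr1 and Trem2 (GRCm38.p6). None of the 6 held a CCGG, against 52.8% of 32851 windows, so RRHP could not read the immediate start of these genes, and the promoter sites above lie outside those windows. The letters GAGGAA, a core bound by the myeloid factor PU.1, occurred on either strand in C1qb, C1qc, Ctss and Trem2 and in 28.3% of all windows. The RUNX letters TGTGGT occurred in C1qc and Cx3cr1 and in 16.8% of all windows. A match is a description of the letters and not a bound site.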

How the data were processed

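RNA levels and RRHP counts of 4 aOPC and 4 aOL libraries were compared. For RNA, the authors aligned reads to mm10 with BWA and counted exon reads, and the deposited values are log2 levels with nearly equal quantiles in all libraries. For RRHP, the deposited values are raw counts per CpG site and strand, and the authors' promoter, exon and intron columns gave the regions. The aligner for RRHP and any treatment of duplicate reads are not given in the sources used here. A site missing from a library's table was given 0 counts.

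The members and lists were chosen with earlier results of these data known. Genes with a log2 level of at least 5 in 2 libraries were tested with limma 3.58.1 and called at p under 0.01 and a Benjamini-Hochberg adjusted p under 0.05. Counts summed over bodies or promoters (after filterByExpr), and sites with at least 10 reads in 2 libraries, were tested with edgeR 4.0.16 (quasi-likelihood, TMM) and called at an adjusted p under 0.05. All fits ran over whole tables, and the code was tested on simulated data. DESeq2 1.42.0, other scalings, filters, a replicate block and leaving out each library were alternatives.

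Named were all 9 members, the 2 genes of lowest limma p in each list, the 5 genes nearest the members' median profile, and each member's most counted body and promoter site and called sites. One gene that this rule names is not reported here. Exon lengths came from GENCODE M21 and coordinates from RefSeq (GRCm38), 1-based at the cytosine. RNA files carry no depth. Counting intervals and the floor of 3 counts per library cover counting error only, since reads had no molecular identifiers.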

Additional observations from a re-analysis of the deposited data

How the results depend on the processing

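In RNA, 0 members were called under the filters, scalings and priors tried on all 4 libraries, and leaving out 1 library gave 0 to 1 members called lower. Single-library omissions moved Csf1r between −0.83 and 1.39, Ctss between −0.92 and 0.71 and Trem2 between −0.29 and 0.33 log2 units, so these directions are not fixed. With directions kept, C1qb ran from −1.88 to −0.37, C1qc from −2.05 to −0.70, Cx3cr1 from −1.06 to −0.15, P2ry12 from −0.91 to −0.17 and C1qa from −0.71 to −0.32. The number of genes called in all was 1 higher and 8 lower, 0 and 0 with no filter (1339 and 1322 at an unadjusted p under 0.05), 11 and 25 with a minimum log2 of 8, and 8 and 15 with a trend and robust prior.

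For gene bodies, 0 members were called in each alternative. P2ry12 ran from −0.17 to 0.43 when 1 library was left out. With library totals of the study, Cx3cr1 turned to 0.047 and Trem2 to 0.18, and with sites of 3 reads in every library C1qa turned to −0.061. Those totals moved the median of all bodies by 0.37 and the calls to 53 higher and 59 lower, from 30 and 127.

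For promoters, 1 member was called higher and 2 lower. No scaling gave 1 lower, with C1qb short of the threshold and P2ry12 at −0.043, while it moved the median of all promoters to −0.60 and the calls to 31 higher and 68 lower, from 61 and 51. Leaving out 1 library gave 1 to 2 lower, with C1qc not tested without aOPC replicate 3 and C1qb short of the threshold without aOL replicate 3, and P2ry12 ran from −0.22 to 1.19. With sites of 3 reads in every library 0 were called higher and 0 lower, since only P2ry12 was then tested.

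For single sites, 10 reads in every library left 0 called higher and 0 lower among the 10 members' sites that remained, since those near 0 in one population drop out. With 5 reads in 2 libraries 55 were tested, with 1 called higher and 3 lower, the added one being C1qc 136892435. Leaving out 1 library gave 0 to 1 higher and 0 to 2 lower. At uncalled sites the log2 difference then ran from −0.90 to 1.11 at C1qc 136890404 (0.11 with library totals of the study), −0.067 to 0.36 at Csf1r 61120816, −0.40 to 0.46 at Cx3cr1 120051952 and −0.048 to 0.30 at P2ry12 59262292. Library totals of the study moved the median of all sites to 0.40 and the calls to 6987 higher and 4050 lower, from 5382 and 4772. The DESeq2 test kept the 3 site calls and the 3 promoter calls. Where no cause is named, the cause was not tested.

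With the replicate number as a block, 0 members were called in RNA and 0 in bodies, 1 promoter higher and 2 lower, and 1 site higher and 2 lower, as without it. The block gave 30 genes higher and 97 lower in RNA. Same-numbered libraries come from different reporter lines. The correlation of their deviations was −0.0736 over all genes tested in RNA and −0.413 over all gene bodies tested. Whether same-numbered libraries shared a processing step was not tested. With 2 libraries a population, and 7113237 counts in the shallowest, differences in weakly read promoters such as those of Trem2 and Cx3cr1 were not detectable.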
